A study of Rattus norvegicus with 16 samples.

Results

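The unfolded protein response and chaperone genes examined here are 38 symbols: 14 chaperones and folding enzymes of the endoplasmic reticulum (ER), 6 genes of ER-associated degradation, 5 stress sensors and transcription factors, 2 targets of the integrated stress response, 8 cytosolic heat shock proteins, 2 mitochondrial chaperones and the heat shock factor Hsf1. A listed gene was kept in a brain region when its mean over all libraries was at least 1 FPKM (fragments per kilobase of transcript, scaled to the size of the library), and a symbol with several loci was taken at the locus with the highest mean. By this rule 33 of the 38 genes were analysed in hippocampus, where 11385 loci were tested in all, and 33 in hypothalamus, where 11498 were tested. In hippocampus Trib3 was under the limit, and Edem1, Derl2, Hspa1b and Atf4 matched no locus by symbol. In hypothalamus Trib3 and Hspa8 were under the limit, and Edem1, Derl2 and Hspa1b matched no locus. These genes were not tested there. The rule uses level and not the response to fructose, but the list was drawn up with earlier results of these data known.

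All animals were male Sprague Dawley rats, an outbred strain, with no transgene or mutation named in the labels. Hippocampus and hypothalamus came from untreated rats (control) or from rats fed fructose for 6 weeks, and the labels give no dose, route, diet or age. Poly-A RNA of bulk tissue was sequenced for 4 control and 4 fructose samples of hippocampus and for 4 control and 3 fructose samples of hypothalamus. Fructose replicate 4 of hypothalamus is named in the labels and was not analysed here. The labels do not say whether samples are separate rats or whether both regions came from the same rats, so p-values measure only the spread between these samples.

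Proteins that enter the ER are folded there by the Hsp70-type chaperone BiP (Hspa5), the Hsp90-type chaperone Hsp90b1, the lectin chaperones Calr and Canx and the protein disulfide isomerases. When unfolded protein accumulates, the membrane sensors Ern1 (IRE1), Atf6 and Eif2ak3 (PERK) start a transcriptional programme: Ern1 splices the Xbp1 mRNA, Atf6 is cleaved to an active factor, and PERK signalling raises translation of Atf4, which acts on Ddit3 (CHOP), Trib3 and Asns. Genes of ER-associated degradation, such as Herpud1, Sel1l, Syvn1 and Derl1, return misfolded proteins to the cytosol for the proteasome. The cytosol has its own programme, in which Hsf1 binds heat shock elements and raises Hsp70, Hsp90, Dnajb1 and Hspb1. Levels of spliced Xbp1 mRNA, cleaved Atf6 and phosphorylated proteins cannot be read from expression values per gene.

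The factors of the ER programme recognise short promoter elements, and these sequences are shown because they are the known link between the ER genes and their factors. Such elements were first defined on promoters of ER stress genes, so finding them in this list is a description and not independent of its choice. RefSeq promoter windows of build GRCr8, from 250 bases before to 50 bases after the annotated start, were matched by symbol for 29 of the 38 genes (30 windows, since Hyou1 has 2). Pdia3, Pdia6, Manf, Derl1, Ern1, Atf6, Hspa1b, Hsp90aa1 and Hsf1 had no matched window. Exact matches were searched on both strands. The ER stress response element (ERSE) is CCAAT and CCACG separated by 9 bases of any kind. It was found in the windows of 7 genes and is shown in the direction of the motif with 5 bases on each side, its fixed letters in capitals:
Hspa5 ERSE: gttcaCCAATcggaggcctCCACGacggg
Hsp90b1 ERSE, far copy: caaacCCAATcgaaaggagCCACGcttcg
Hsp90b1 ERSE, near copy: acccaCCAATcgtgcctcaCCACGcactc
Calr ERSE: ctgggCCAATcagggtcgaCCACGcgttg
Canx ERSE: cttgtCCAATcatcacgctCCACGaagaa
Dnajc3 ERSE: caaagCCAATcagcgccaaCCACGaccca
Creld2 ERSE: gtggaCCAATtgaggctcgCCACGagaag
Xbp1 ERSE: acaggCCAATcgcagacggCCACGaccct
The Hspa5 copy lies from -43 to -25 relative to the start, the Xbp1 copy from -65 to -47, the 2 Hsp90b1 copies from -176 to -158 and from -72 to -54, and the Calr and Canx copies begin at -232 and -230.

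The second form, ERSE-II, is ATTGG and CCACG separated by 1 base. It was found in 3 genes, all of the ER group, and is shown in the same way:
Herpud1 ERSE-II: cgctgATTGGgCCACGttggg
Dnajb11 ERSE-II: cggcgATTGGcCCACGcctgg
Hyou1 ERSE-II, far copy: tgcggATTGGcCCACGtcacg
Hyou1 ERSE-II, near copy: tccccATTGGgCCACGtagaa
Together, ERSE or ERSE-II stood in 10 of the 30 windows of the gene set (33.3%), against 39 of 33469 windows of the whole RefSeq table (0.117%) and 26 of 8788 windows of genes tested in either region (0.296%). They stood in 9 of 17 windows of the ER chaperone and degradation genes (52.9%), in that of Xbp1, and in 0 of 6 windows of cytosolic heat shock genes. The unfolded protein response element TGACGTGG or TGACGTGA was found in Hspa5, Hyou1 and Hsph1 (0.995% of all windows), and in Hyou1 it overlaps the far ERSE-II. The amino acid response motif TGATGNAAT (1.09% of all windows) was in none of the 30. These matches describe letters in a window of fixed length and do not show binding.

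The heat shock element was searched as GAA, TTC and GAA with gaps of 2 bases (0.798% of all windows). It was found in Hspa8, Hsph1 and the mitochondrial pair Hspd1 and Hspe1, and in 0 of 17 windows of the ER group:
Hspa8 heat shock element, far copy: agcgtGAAagTTCcaGAAcgctg
Hspa8 heat shock element, near copy: tcttaGAAccTTCcaGAAgggtt
Hsph1 heat shock element: gaggaGAActTTCcaGAAtctgc
Hspd1 and Hspe1 heat shock element: ttctaGAAccTTCcgGAAggccc
Hspd1 and Hspe1 have overlapping windows in opposite directions on chromosome 9 (chr9:64083988-64084287 and chr9:64084077-64084376), so their shared stretch holds a match on each strand that counts for both genes.

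The 250 bases before the start are printed whole for Hspa5 (chr3:38452766-38453015, plus strand), Herpud1 (chr19:10614708-10614957, minus strand), Xbp1 (chr14:84604373-84604622, plus strand) and Hsph1 (chr12:10427118-10427367, plus strand), each in the direction of its gene with all motif matches in capitals. They stand for an ER chaperone, an ER degradation gene, the ER transcription factor and a cytosolic chaperone whose values are given below.
Hspa5 promoter: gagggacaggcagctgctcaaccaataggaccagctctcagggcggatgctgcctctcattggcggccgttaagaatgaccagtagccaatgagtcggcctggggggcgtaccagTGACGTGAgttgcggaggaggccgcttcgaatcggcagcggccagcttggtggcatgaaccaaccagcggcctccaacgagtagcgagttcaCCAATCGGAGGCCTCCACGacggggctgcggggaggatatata
Herpud1 promoter: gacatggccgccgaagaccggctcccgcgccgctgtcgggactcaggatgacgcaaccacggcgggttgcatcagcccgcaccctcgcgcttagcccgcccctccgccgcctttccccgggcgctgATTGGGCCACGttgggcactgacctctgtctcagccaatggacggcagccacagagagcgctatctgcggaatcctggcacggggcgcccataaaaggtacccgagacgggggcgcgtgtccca
Xbp1 promoter: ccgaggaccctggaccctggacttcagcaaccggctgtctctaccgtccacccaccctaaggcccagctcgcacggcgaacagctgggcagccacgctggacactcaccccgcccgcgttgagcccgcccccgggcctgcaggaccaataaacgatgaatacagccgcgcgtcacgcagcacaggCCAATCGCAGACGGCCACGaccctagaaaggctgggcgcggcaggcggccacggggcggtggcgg
Hsph1 promoter: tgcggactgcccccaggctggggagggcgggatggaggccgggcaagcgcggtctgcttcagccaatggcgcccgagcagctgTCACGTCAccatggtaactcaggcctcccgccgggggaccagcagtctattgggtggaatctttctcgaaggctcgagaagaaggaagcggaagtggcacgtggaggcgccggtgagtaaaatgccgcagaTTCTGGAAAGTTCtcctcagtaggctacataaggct

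**Figure D1:**
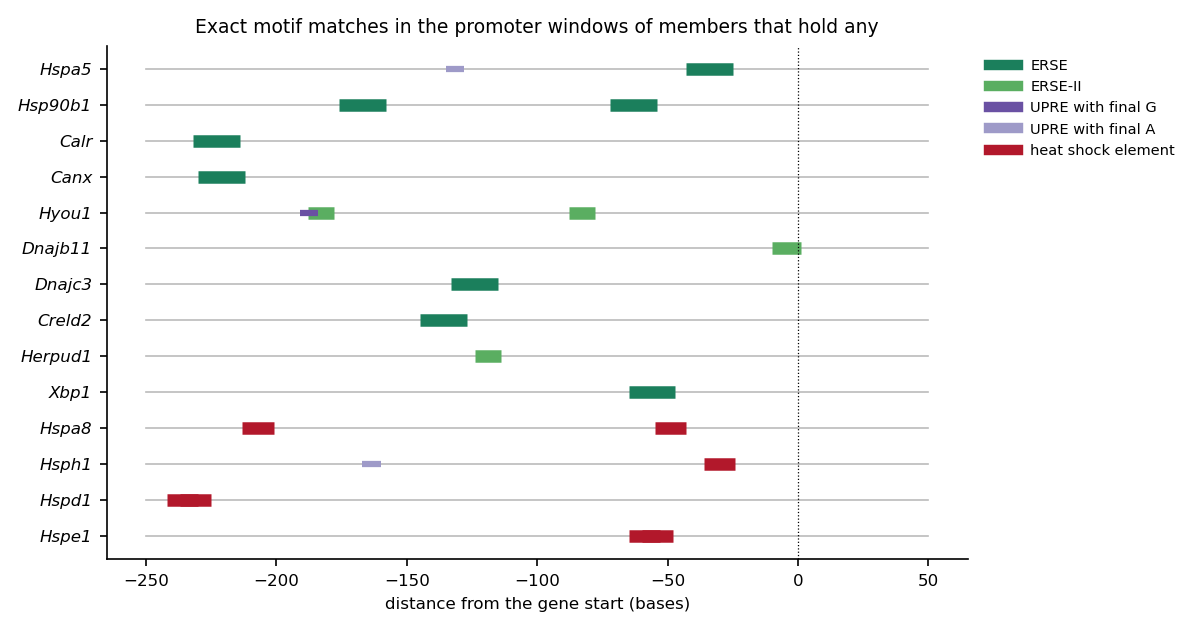
Positions of exact motif matches in the RefSeq promoter windows of the 14 genes that hold any; the horizontal axis is the distance from the annotated gene start in bases and each bar spans a match. ERSE and ERSE-II (greens) stand only in rows of ER genes and Xbp1, and heat shock elements (red) only in the rows of Hspa8, Hsph1, Hspd1 and Hspe1.

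Read counts are not part of the FPKM tables, which leaves sequencing depth unknown. Summed FPKM per library ranged from 353703 to 402099 for hippocampus and from 435105 to 492778 for hypothalamus. Replicate 1 of control and of fructose was unlike the remaining libraries in both regions. Over all tested loci the replicate 1 control and fructose libraries correlated at r = 0.985 in hippocampus and 0.980 in hypothalamus, replicate 1 against other libraries at 0.840 to 0.909, and the other libraries among themselves at 0.934 to 0.979. Tissue markers followed the labels: the summed level of 6 hippocampal markers was 179.5 to 278.7 FPKM in hippocampus and 19.6 to 49.1 in hypothalamus, and 10 hypothalamic markers summed to 3339 to 8927 FPKM in hypothalamus, while only 3 of them passed 1 FPKM in hippocampus.

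With fructose, no gene of the set passed the test in either region. limma's moderated test with Benjamini-Hochberg adjustment at 0.05 called 0 of 33 in hippocampus, where it called 0% of all loci, and 0 of 33 in hypothalamus, where it called 1 locus of 11498 (0.0087%), Slc39a12, which is not a member. At an unadjusted p under 0.05 the counts were 0 of 33 in hippocampus (0.808% of all loci, 0.474% lower with fructose) and 1 of 33 in hypothalamus (3.14% of all loci), the small heat shock protein gene Hspb1. In no gene of the set did the control and fructose groups fail to overlap, against 0.668% of all loci in hippocampus and 3.33% in hypothalamus. The adjusted p of every tested member was at least 0.9999 in hippocampus and at least 0.9998 in hypothalamus, and is not repeated below. The precision was moderate: the 95% interval of the fold change reached a median of 0.37 to each side on the log2 scale in hippocampus and 0.44 in hypothalamus. For 31 of 33 genes in each region the whole interval lay within a 2-fold difference in either direction; the exceptions were Hspa8 and Hspb1 in hippocampus, and Manf and Hspd1 in hypothalamus.

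The signs of these differences leaned to one side without passing a test. In hippocampus 26 of 33 fold changes were positive, against 48.6% of all loci, with a median of 0.05 on the log2 scale of FPKM + 1. In hypothalamus 22 of 33 were positive, against 51.5% of all loci, with a median of 0.03. Of the 32 genes tested in both regions, 17 were positive in both, 2 were negative in both and 13 had opposite signs. Genes of a set share libraries and regulation, so these counts describe the libraries and are no test. Leaving out 1 library moved them from 16 (without control replicate 1) to 27 of 33 in hippocampus, and from 15 (without fructose replicate 1) to 25 of 33 in hypothalamus.

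**Figure D2:**
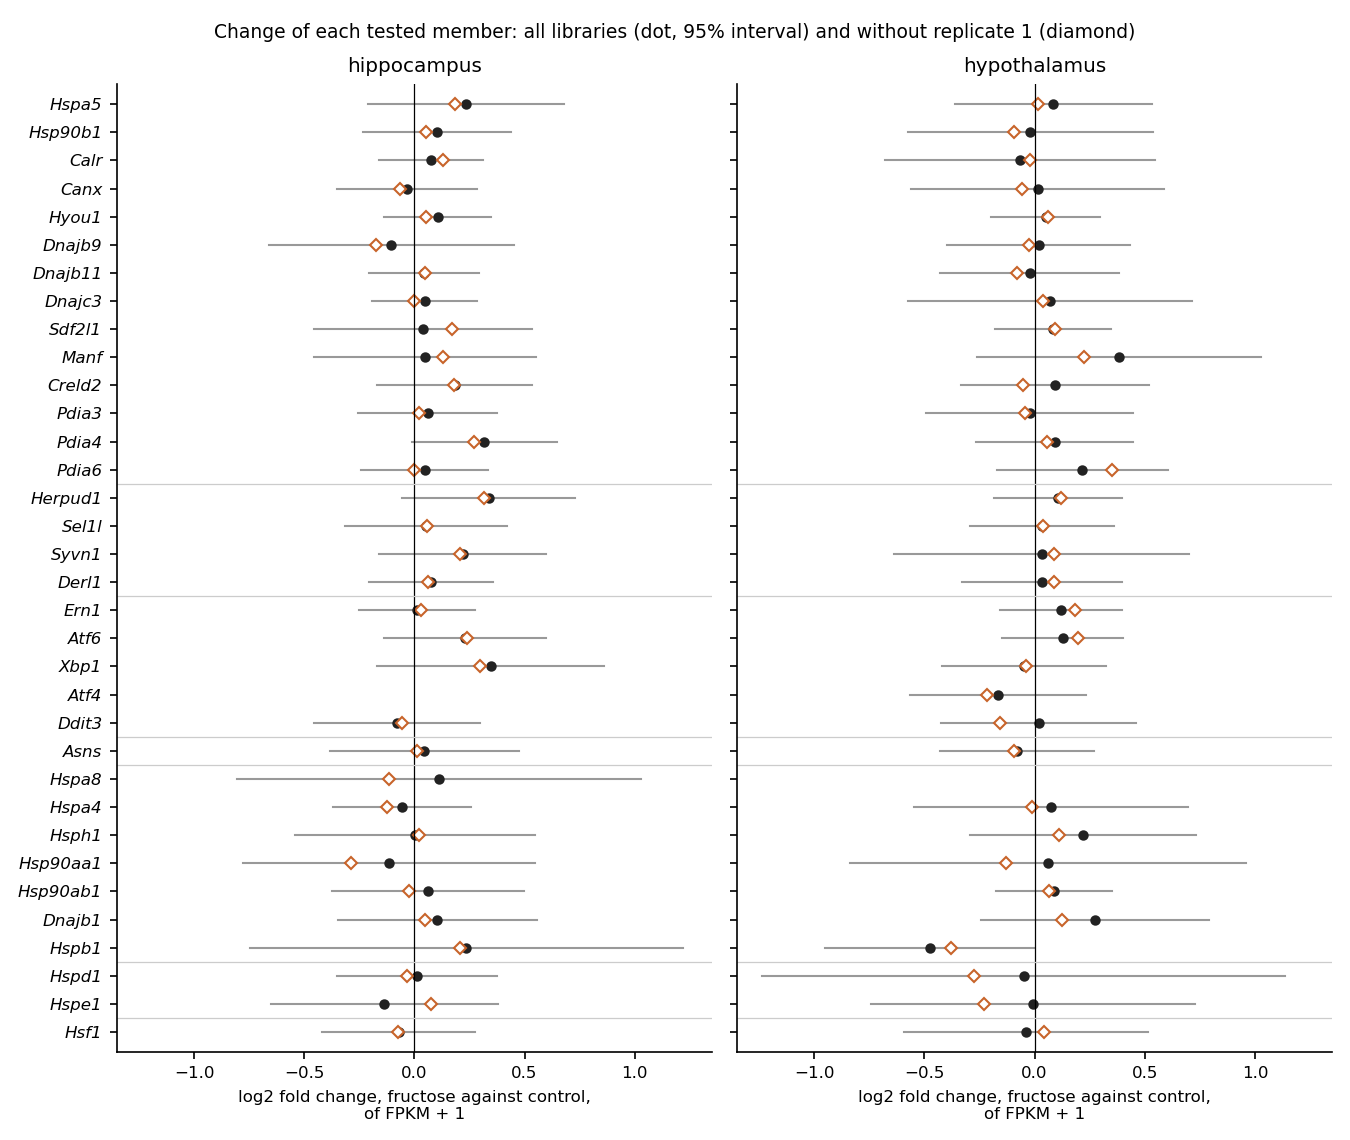
Log2 fold change of FPKM + 1, fructose against control, for each gene tested, in hippocampus (left) and hypothalamus (right); dots and lines give the estimate from all libraries with its 95% interval, open diamonds the estimate without the replicate 1 libraries, and grey lines separate the groups of genes by role. Every interval but that of Hspb1 in hypothalamus includes 0, and Atf4 (left) and Hspa8 (right) are blank because they were not tested there.

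Among the sensors and factors, Xbp1, the factor made active by Ern1, had the largest difference of the whole set in hippocampus. Its level was 31.9, 51.04, 40.3 and 59.4 FPKM in control replicates 1 to 4 and 45.2, 57.7, 52.3 and 76.3 in fructose replicates 1 to 4. Each fructose library lay above the control library of its number, and the groups overlapped. A pair here means the control and fructose libraries of one number, and the labels do not say that a number pairs samples. Of all loci, 3% were higher with fructose in all 4 hippocampal pairs and 14.2% in all 3 hypothalamic pairs. The log2 fold change was 0.35 ± 0.22 (SE; unadjusted p = 0.16 in limma), smaller than the spread between replicates. In hypothalamus Xbp1 stood at 90.0, 104.4, 107.6 and 127.8 FPKM in controls and 91.2, 99.3 and 121.1 with fructose, a log2 fold change of -0.05 ± 0.16. Atf6, the cleaved membrane factor, showed 7.37, 6.15, 7.35 and 4.57 FPKM in hippocampal controls and 8.67, 6.46, 8.03 and 7.08 with fructose. It too was above the control of the same number in every pair, with a log2 fold change of 0.23 ± 0.16. In hypothalamus Atf6 was 8.66, 7.85, 7.01 and 7.84 FPKM in controls and 8.26, 8.68 and 8.97 with fructose (0.13 ± 0.12).

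Ern1, the splicing sensor, was the lowest of the tested genes on the FPKM scale. It measured 2.24, 1.84, 2.11 and 2.41 FPKM in hippocampal controls and 2.14, 2.04, 2.07 and 2.45 with fructose, a log2 fold change of 0.01 ± 0.12. In hypothalamus it measured 3.47, 2.93, 3.38 and 3.12 FPKM in controls and 3.36, 3.63 and 3.77 with fructose (0.12 ± 0.12). Ddit3, the factor CHOP of the death branch, did not separate the groups. Its hippocampal values were 18.6, 19.5, 17.0 and 24.9 FPKM in controls and 16.7, 21.5, 22.3 and 15.3 with fructose, and its hypothalamic values were 29.0, 32.8, 27.2 and 39.2 in controls and 39.1, 33.9 and 25.2 with fructose. Its log2 fold changes were -0.08 ± 0.16 and 0.02 ± 0.19. Atf4 was measured in hypothalamus alone, at 112.2, 152.9, 130.7 and 174.2 FPKM in controls and 115.0, 122.3 and 139.4 with fructose (-0.17 ± 0.17). Of the targets of Atf4, the asparagine synthetase gene Asns was 51.1 ± 10.5 against 52.4 ± 8.19 FPKM (control against fructose, mean ± SD, n = 4 and 4) in hippocampus and 25.6 ± 4.06 against 23.9 ± 1.49 (n = 4 and 3) in hypothalamus. Trib3, a pseudokinase induced by Atf4 and Ddit3, stayed at or under 0.357 FPKM in every hippocampal library and 0.846 in every hypothalamic library.

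Among the ER chaperones, Hspa5 (BiP), which holds the sensors inactive, measured 155.4, 222.2, 225.2 and 259.5 FPKM in hippocampal controls and 201.9, 250.2, 241.2 and 316.2 with fructose. The fructose library was the higher of each pair, and 3 of the 4 fructose values lay inside the control range. The log2 fold change was 0.23 ± 0.19. In hypothalamus Hspa5 was 265.8, 181.9, 200.8 and 204.9 FPKM in controls and 288.0, 197.0 and 198.7 with fructose (0.09 ± 0.19), with replicate 1 the highest of each group. Pdia4, a disulfide isomerase, had the smallest p of the set in hippocampus. It measured 13.6, 16.1, 15.9 and 18.6 FPKM in controls and 19.1, 19.9, 17.1 and 25.2 with fructose, so that only 1 fructose library fell below the highest control. Its log2 fold change was 0.32 ± 0.14 (unadjusted p = 0.0568 in limma). In hypothalamus Pdia4 was again the higher of each pair with fructose, at 43.4, 31.8, 36.3 and 38.4 FPKM in controls and 46.3, 34.5 and 39.3 with fructose, and the log2 fold change was 0.09 ± 0.15.

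Manf, a secreted ER-resident neurotrophic factor, had the largest positive difference in hypothalamus. Its values were 43.8, 70.2, 103.7 and 84.3 FPKM in controls and 84.3, 94.4 and 105.2 with fructose, with a log2 fold change of 0.38 ± 0.28 (unadjusted p = 0.206 in limma). The control replicate 1 library was the lowest, and without both replicate 1 libraries the log2 fold change was 0.23 ± 0.18. In hippocampus Manf averaged 67.3 ± 2.81 FPKM in controls and 72.4 ± 23.3 with fructose (n = 4 and 4), where the fructose libraries were spread from 47.1 to 93.6. Pdia6, another disulfide isomerase, measured 122.3, 128.8, 148.2 and 107.6 FPKM in hypothalamic controls and 119.3, 167.7 and 156.9 with fructose (0.22 ± 0.17), and 0.35 ± 0.16 without both replicate 1 libraries (unadjusted p = 0.0642 in limma). The remaining ER chaperones lay between -0.10 (Dnajb9, a BiP co-chaperone) and 0.18 (Creld2, a secreted ER stress protein) in hippocampus, and between -0.07 (Calr) and 0.09 (Creld2) in hypothalamus. Calr, the calcium-binding lectin chaperone, averaged 341.8 ± 15.0 against 360.7 ± 26.4 FPKM in hippocampus, and Pdia3, the isomerase that works with Calr and Canx, 215.8 ± 30.1 against 224.3 ± 24.8.

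All 4 tested genes of ER-associated degradation had positive log2 fold changes in both regions, none of them past the test. Herpud1, which organises the degradation complex, measured 26.5, 24.3, 24.2 and 38.5 FPKM in hippocampal controls and 35.4, 34.6, 30.6 and 42.2 with fructose. The fructose library was the higher of every pair, and only control replicate 4 lay within the fructose range. The log2 fold change was 0.34 ± 0.17 (unadjusted p = 0.0829 in limma). In hypothalamus Herpud1 was 53.3, 59.5, 56.1 and 65.4 FPKM in controls and 58.1, 61.2 and 70.4 with fructose (0.11 ± 0.12), again higher in every pair. Syvn1, the ubiquitin ligase Hrd1, had log2 fold changes of 0.22 ± 0.17 and 0.03 ± 0.29, its partner Sel1l 0.05 ± 0.16 and 0.03 ± 0.14, and the channel protein Derl1 0.08 ± 0.12 and 0.03 ± 0.16, in hippocampus and hypothalamus. The mean log2(FPKM + 1) of the 4 genes was 4.52 to 4.58 in hippocampal controls and 4.61 to 4.89 with fructose, and 5.23 to 5.47 against 5.27 to 5.64 in hypothalamus. In hippocampus these class means did not overlap between the groups; this class was singled out after its values were seen, and no test was made of it.

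**Figure D3:**
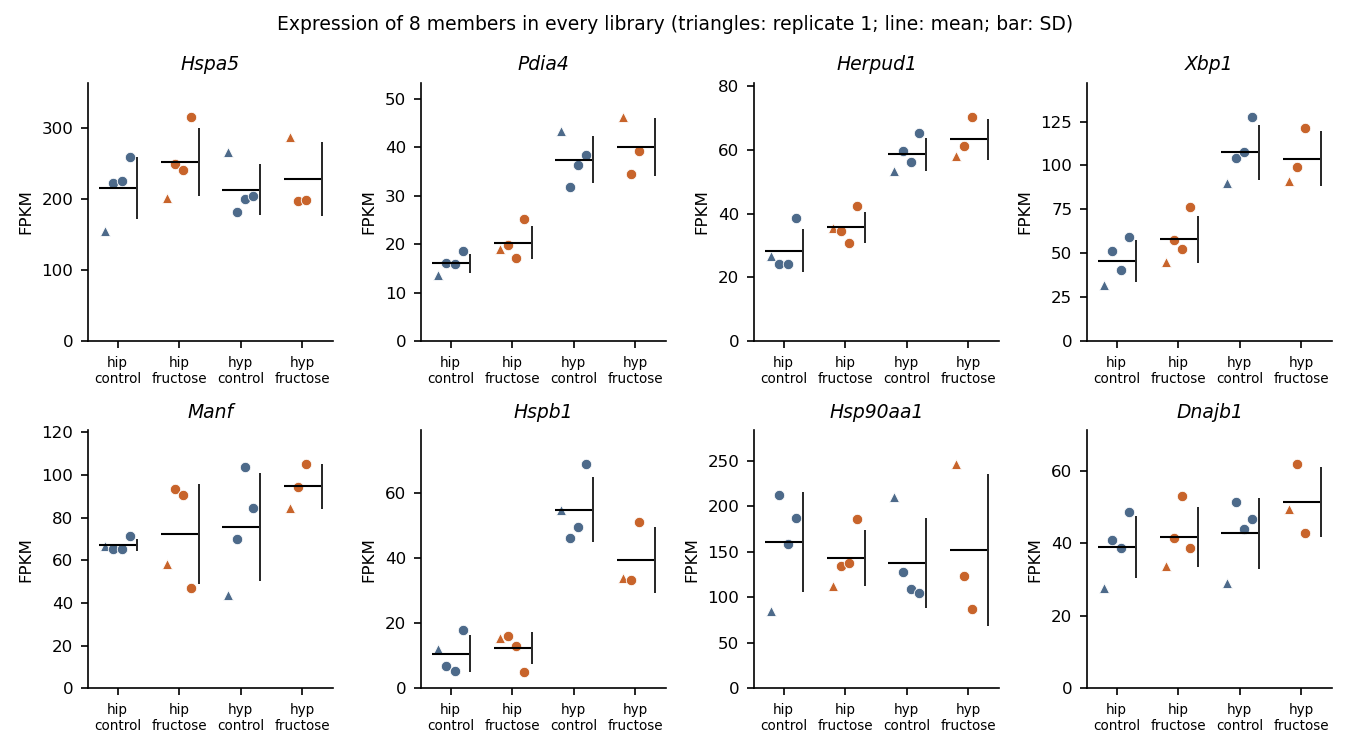
FPKM of 8 genes in every library, in hippocampus (hip) and hypothalamus (hyp), for control (blue) and fructose (orange); triangles are replicate 1, horizontal lines the group means and vertical lines 1 SD to each side, with 4 libraries a group and 3 for hypothalamus with fructose. The groups of each region overlap for all 8 genes, and Pdia4, Herpud1, Xbp1 and Hspb1 stand at higher FPKM in hypothalamus.

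Libraries of the same replicate number deviated from their group means together, most of all replicate 1. The comparison was repeated with the number as a block. Replicate 1 shifts the means of both groups alike, so these deviations cannot show that numbers 2 to 4 pair samples. In hippocampus, Xbp1 (0.35 ± 0.10, unadjusted p = 0.0137), Herpud1 (0.34 ± 0.11, 0.0172) and Pdia4 (0.32 ± 0.11, 0.0224) then had an unadjusted p under 0.05 in limma, 3 of 33 genes against 1.78% of all loci, with adjusted p = 0.9997 for each. In hypothalamus control replicate 4 has no fructose library of its number, so the block sets it aside and fold changes rest on the other libraries. There Manf had 0.46 ± 0.18 (unadjusted p = 0.0439 in limma, adjusted p = 0.739), 1 of 33 against 6.6% of all loci. Counted by pairs, fructose was above control in all 4 numbers for 6 of 33 genes in hippocampus, namely Hspa5, Pdia4, Herpud1, Syvn1, Atf6 and Xbp1, against 3% of all loci, and below in all 4 for 0 of 33, against 4.37%. In hypothalamus fructose was above control in all 3 numbers for Calr, Hyou1, Sdf2l1, Manf, Pdia4 and Herpud1, 6 of 33 against 14.2% of all loci, and below in all 3 for Hsp90b1 and Pdia3, 2 of 33 against 12.1%. Herpud1 and Pdia4 were in both lists. The hypothalamic counts were near their background. Without both replicate 1 libraries 0 of 33 genes had an unadjusted p under 0.05 in limma in hippocampus (1.34% of all loci) and 0 of 33 in hypothalamus (9.28%). With a term for replicate 1 in the fit, the counts were 2 of 33 in hippocampus (1.18% of all loci), Pdia4 and Syvn1, and 2 of 33 in hypothalamus (7.71%), Hspb1 and Manf, with adjusted p of 0.9998 in hippocampus and of 0.634 and 0.638 in hypothalamus.

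The cytosolic heat shock genes ranged widely between libraries of one group. Hsp90aa1, the inducible cytosolic Hsp90, measured 84.8, 212.7, 158.5 and 187.1 FPKM in hippocampal controls and 113.0, 134.2, 138.1 and 186.1 with fructose (-0.11 ± 0.29). In hypothalamus it measured 210.7, 127.5, 109.2 and 104.5 FPKM in controls and 246.7, 123.0 and 86.9 with fructose (0.06 ± 0.39). Replicate 1 was thus the lowest library of each hippocampal group and the highest of each hypothalamic group. Dnajb1, the Hsp40 that works with Hsp70, was 27.7, 40.9, 38.7 and 48.6 FPKM in hippocampal controls and 33.6, 41.4, 53.0 and 38.7 with fructose (0.10 ± 0.20). In hypothalamus it was 28.9, 51.5, 43.8 and 46.6 FPKM in controls and 49.4, 61.8 and 42.8 with fructose (0.28 ± 0.22).

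Hspb1, a small heat shock protein known from glia, vessels and stressed neurons, had the smallest p of the set in hypothalamus. It measured 54.8, 46.2, 49.6 and 69.0 FPKM in controls and 34.0, 33.3 and 51.3 with fructose: 2 fructose libraries lay below all controls and the third among them. The log2 fold change was -0.48 ± 0.20 (unadjusted p = 0.0494 in limma, lower with fructose, where 2.12% of all loci passed). With the replicate block, which sets aside control replicate 4 (69.0 FPKM), it was -0.36 ± 0.16 (unadjusted p = 0.0582 in limma). Without both replicate 1 libraries it was -0.38 ± 0.24 (unadjusted p = 0.158 in limma). Hspb1 thus no longer had a p under 0.05 in either fit. In hippocampus Hspb1 was 12.2, 6.85, 5.37 and 17.95 FPKM in controls and 15.5, 15.9, 13.0 and 5.14 with fructose (0.24 ± 0.43), the widest spread of the tested genes after Hspa8. Hsph1, the Hsp110 exchange factor, averaged 179.4 ± 42.1 against 180.4 ± 45.01 FPKM in hippocampus and 95.5 ± 16.3 against 113.1 ± 32.1 in hypothalamus. Hsp90ab1, the constitutive Hsp90 and the most abundant member on the FPKM scale, averaged 614.7 ± 138.5 against 633.1 ± 89.3 and 681.7 ± 39.0 against 724.6 ± 46.1; in hippocampus its locus carries a status other than OK in the table. Hspa8, the constitutive Hsp70, was listed at 1.54, 6.58, 4.78 and 6.74 FPKM in hippocampal controls, 3.37, 4.21, 4.13 and 9.02 with fructose, and at 0.0775 to 0.699 in hypothalamus. This is low for a gene that most cells transcribe strongly, near-identical processed copies of it exist in the genome, and its values are uncertain here.

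Of the mitochondrial chaperones, Hspd1 (Hsp60) averaged 43.8 ± 7.06 against 44.1 ± 7.09 FPKM in hippocampus and 30.9 ± 16.1 against 31.7 ± 22.6 in hypothalamus. Its partner Hspe1 (Hsp10) averaged 79.6 ± 23.6 against 71.0 ± 13.6 and 72.8 ± 16.4 against 76.4 ± 36.2. Neither pair of means differed by more than the SD of its groups. Hsf1, the factor of the heat shock programme, measured 12.4, 9.35, 11.5 and 12.1 FPKM in hippocampal controls and 11.9, 11.4, 11.9 and 8.03 with fructose (-0.07 ± 0.15). In hypothalamus it measured 12.4, 16.0, 19.4 and 19.95 FPKM in controls and 11.7, 16.9 and 21.3 with fructose (-0.04 ± 0.24).

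The ER genes (chaperones and degradation, 18 tested in each region) were set against the cytosolic heat shock genes (7 in hippocampus, 6 in hypothalamus) by description alone. In hippocampus 16 of 18 ER genes and 5 of 7 cytosolic genes were positive, with median log2 fold changes of 0.07 and 0.06, which differ by 0.0066. The hippocampal cytosolic class holds Hspa8 (0.11 ± 0.40, 1.54 to 9.02 FPKM), whose values are uncertain, and the hypothalamic class does not. Its fold change lies above the cytosolic median, which would be lower without it, so the closeness of the 2 medians rests in part on this gene. The mean log2(FPKM + 1) of the ER genes was 5.42 ± 0.10 in controls and 5.52 ± 0.09 with fructose (SD, n = 4 and 4), and the fructose library was the higher of all 4 pairs. That of the cytosolic genes was 5.99 ± 0.36 and 6.04 ± 0.15, higher with fructose in replicates 1 and 3 and lower in 2 and 4. In hypothalamus 14 of 18 ER genes and 5 of 6 cytosolic genes were positive, with medians of 0.04 and 0.08. The ER mean was 5.96 ± 0.07 in controls and 6.02 ± 0.08 with fructose (n = 4 and 3). It was the higher with fructose in all 3 pairs, but nearly level in replicate 3, at 5.9999 in control and 6.0055 with fructose. The cytosolic mean was 6.70 ± 0.10 and 6.74 ± 0.24. The 2 classes therefore did not part in either region by more than the spread between libraries.

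Without both replicate 1 libraries, 14 of 18 hippocampal ER genes were positive with a median of 0.06, while 3 of 7 cytosolic genes were positive with a median of -0.02. In hypothalamus 11 of 18 ER genes and 3 of 6 cytosolic genes were then positive, with medians of 0.04 and 0.03. The ER mean in hippocampus was 5.47 ± 0.05 in controls and 5.56 ± 0.07 with fructose (n = 3 and 3), and the cytosolic mean 6.15 ± 0.22 and 6.11 ± 0.07. Single libraries turned the cytosolic median in hippocampus: it was -0.152 without control replicate 1, -0.0080 without control replicate 3, -0.0144 without fructose replicate 3 and -0.116 without fructose replicate 4. In hypothalamus both medians were negative without fructose replicate 1, at -0.033 for ER genes and -0.083 for cytosolic genes. The ER median in hippocampus was positive without each library in turn, from 0.03 to 0.11.

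**Figure D4:**
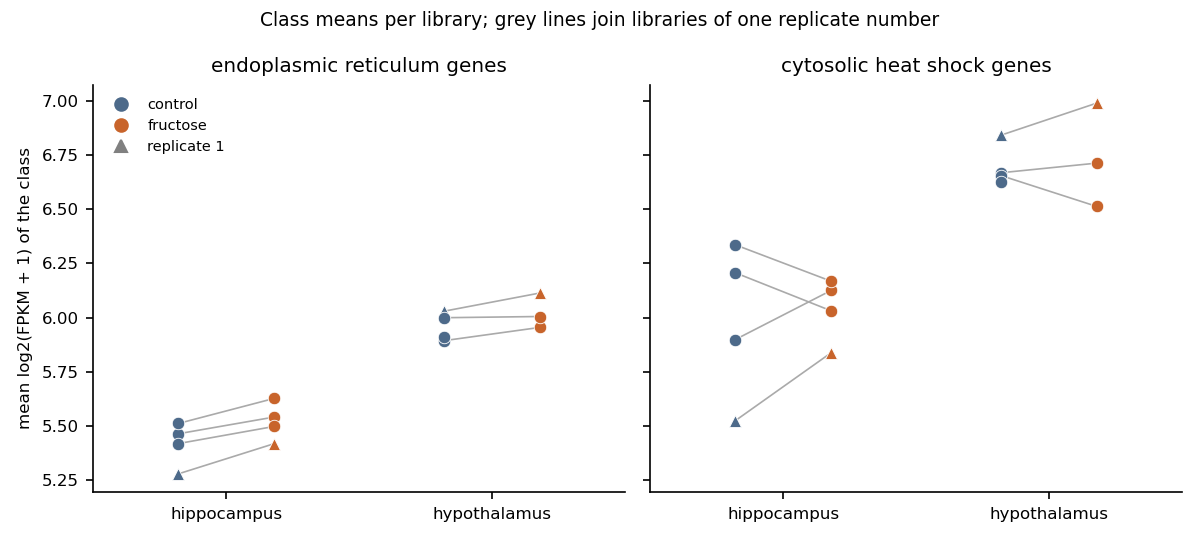
Mean log2(FPKM + 1) of the ER genes (left) and of the cytosolic heat shock genes (right) in each library; blue is control, orange fructose, triangles replicate 1, and grey lines join libraries of the same replicate number. The ER lines run upward in all 4 hippocampal pairs and in hypothalamic replicates 1 and 2. In hypothalamic replicate 3 the ER line is nearly flat (5.9999 to 6.0055), and the cytosolic lines run both ways.

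Many of these genes had their most distant values in the replicate 1 libraries, often in opposite directions in the 2 regions. In hippocampus both replicate 1 libraries lay below all others for 14 of 33 genes (18.8% of all loci did so) and above all others for 1, Syvn1 (9.52% of all loci). In hypothalamus they lay above all others for 14 of 33 (28% of all loci) and below for 6 (23.2%). For 8 genes replicate 1 was below in hippocampus and above in hypothalamus: Canx, Dnajb11, Dnajb9, Hsp90aa1, Hsp90b1, Hspa5, Hspd1 and Hsph1. These were 8 of 32 members against 9.68% of all symbols. The reverse was seen for 1 of 32, Syvn1 (3.89% of all symbols), and the same direction in both regions for 1 of 32, Derl1 (2.28%). Hsp90aa1 had a replicate 1 mean of 98.9 FPKM against 169.5 in the other hippocampal libraries, a ratio of 0.584, and of 228.7 against 110.2 in hypothalamus, a ratio of 2.08. Hspd1 had ratios of 0.771 and 2.59. Syvn1 had ratios of 1.41 and 0.581, and Calr had 0.965 and 0.606. By class, 5 of 7 cytosolic genes, 7 of 18 ER genes and 2 of 8 others were below in hippocampus, and 3 of 6, 9 of 18 and 2 of 9 were above in hypothalamus. Each group has 1 replicate 1 library, among 4 and 4 in hippocampus and 4 and 3 in hypothalamus. In hippocampus a term for replicate 1 cannot change a fold change, because each group of 4 holds 1 such library. Leaving out both replicate 1 libraries there moved Hspa5 from 0.23 to 0.18 and Hsp90aa1 from -0.11 to -0.29. The positive members in hippocampus then went from 26 to 22 of 33. In hypothalamus the term moved Hspa5 from 0.09 to 0.05, Hsp90aa1 from 0.06 to -0.03 and the positive members from 22 to 20 of 33. What sets these libraries apart is not given in the labels and was not tested.

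**Figure D5:**
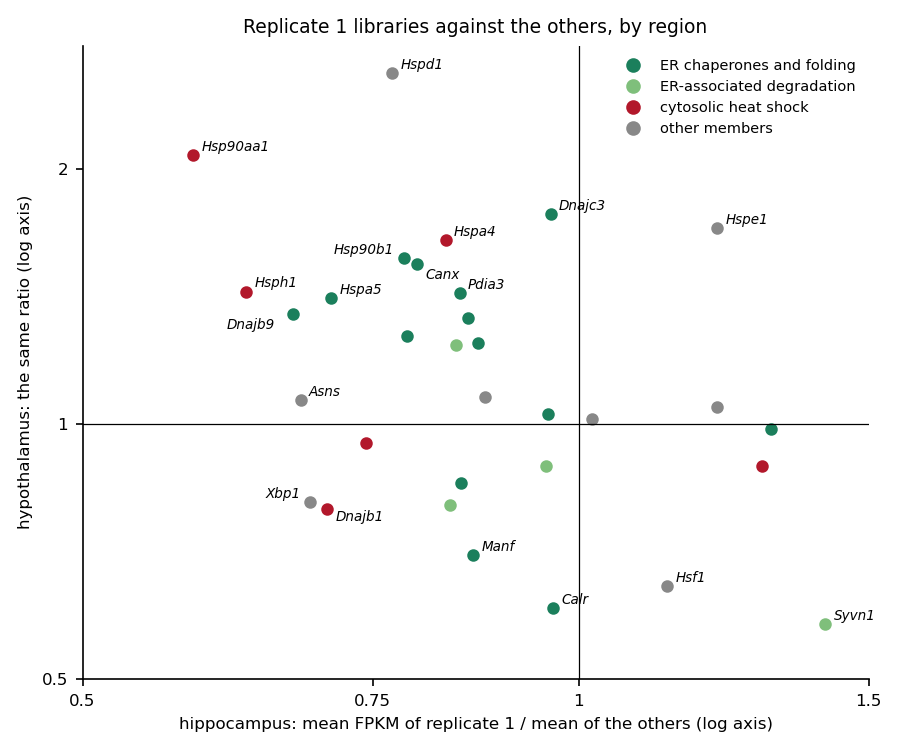
Mean FPKM of the 2 replicate 1 libraries divided by the mean of the other libraries, in hippocampus (horizontal, log axis) and hypothalamus (vertical, log axis), for the 32 genes tested in both regions; colours give the class. Most chaperones lie in the upper left, below 1 in hippocampus and above 1 in hypothalamus, with Hsp90aa1 at 0.584 and 2.08 and Syvn1 at the opposite corner.

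Whether the fructose difference itself differed between regions was tested as an interaction over 9931 symbols, hypothalamus minus hippocampus. limma called 0 of 32 members with Benjamini-Hochberg adjustment (0% of all symbols), and 0 of 32 had an unadjusted p under 0.05 (2.31% of all symbols). That count was also 0 of 32 with the replicate block (3.36%), without the replicate 1 libraries (3.86%) and with a term for replicate 1 (3.8%). The 3 smallest p belonged to Hspb1 (-0.71 ± 0.51, unadjusted p = 0.186), Xbp1 (-0.39 ± 0.29, unadjusted p = 0.2) and Pdia4 (-0.23 ± 0.22, unadjusted p = 0.311), all with adjusted p = 0.9999 in limma. For Hspb1 the fructose mean was the higher in hippocampus and the lower in hypothalamus, but the spread of its hippocampal libraries was as large as the difference.

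Control levels were set side by side between the regions as a description, because the tables were made separately. On the FPKM scale the median ratio of hypothalamus to hippocampus was 1.152 over all symbols, 1.349 over the 18 ER genes and 0.970 over 6 cytosolic genes. Hspb1 had the highest ratio, 5.18 (54.9 ± 10.01 against 10.6 ± 5.72 FPKM, n = 4 each). It was followed by Xbp1 at 2.35, Pdia4 at 2.34, Sdf2l1 at 2.29, Canx at 2.20, Syvn1 at 2.18, Derl1 at 2.12, Herpud1 at 2.06, Hyou1 at 2.01 and Hsp90b1 at 1.81. For these 10, and for Ddit3 (1.60) and Ern1 (1.5002), all hypothalamic controls lay above all hippocampal controls, 12 of 32 members against 32.5% of all symbols. Hspa5 was level at 0.990, 213.4 ± 36.4 against 215.6 ± 43.6 FPKM. At the other end Asns (0.5001), Hsph1 (0.532), Hspa4 (0.534) and Dnajb11 (0.687) were lower in every hypothalamic control, 4 of 32 members against 17.2% of all symbols. Both counts were near the background. The ER chaperones therefore did not share a single ratio: Pdia4 and Dnajb11 differed from Hspa5 in opposite directions.

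The promoter elements were set beside the fructose differences. In hippocampus 9 of 10 tested genes with ERSE or ERSE-II were positive, with a median of 0.10, and 11 of 15 genes whose window held neither, with a median of 0.04. Xbp1 and Herpud1, the 2 largest differences in hippocampus, carry ERSE and ERSE-II as printed above, but Pdia4, the next largest, has neither in its window. In hypothalamus 6 of 10 and 10 of 15 were positive, both with a median of 0.03. All genes with an element were ER genes or Xbp1, and every cytosolic or mitochondrial gene with a window was among those without, so the split is mixed with class. Tested genes with no matched window, among them Atf6, Manf, Pdia6 and Hsp90aa1, are not in it. No test was made of this split.

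The wider stress pathway, 141 further symbols in which some genes stand under an old and a current name, was listed by role. Taken whole, it did not show the lean of the members. Its ER folding and ER degradation genes were more often positive than all loci in hippocampus, and less often in hypothalamus. In hippocampus 124 were tested, 66 were positive, the median was 0.0056, 0 were called and 1 had an unadjusted p under 0.05 in limma. In hypothalamus 124 were tested, 60 were positive, the median was -0.0043, 0 were called and 1 had an unadjusted p under 0.05. Of 25 other ER folding genes, 16 (64%) were positive in hippocampus, against 48.6% of all loci, with a median of 0.01. In hypothalamus 9 of them (36%) were positive, against 51.5% of all loci, with a median of -0.02. Of the other ER degradation genes, 9 of 14 (64.3%) were positive in hippocampus and 7 of 15 (46.7%) in hypothalamus. In the same order, 10 of 20 and 12 of 20 other integrated stress genes were positive. So were 18 of 40 and 23 of 39 other cytosolic heat shock genes, and 3 of 7 other mitochondrial genes in each region. Of the other sensors and factors 10 of 18 were positive in hippocampus and 6 of 18 in hypothalamus.

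In hippocampus the gene with an unadjusted p under 0.05 was Creb3l1, a membrane-bound factor cleaved like Atf6. It measured 2.58, 2.02, 2.02 and 4.04 FPKM in controls and 4.71, 4.50, 3.55 and 3.18 with fructose, and the groups overlapped through control replicate 4 (0.46 ± 0.20, unadjusted p = 0.0448 in limma). In hypothalamus it was Gars, glycyl-tRNA synthetase, a target of Atf4, at 93.5, 95.3, 78.4 and 107.7 FPKM in controls and 75.6, 73.9 and 74.7 with fructose (-0.31 ± 0.13, unadjusted p = 0.0449 in limma). Gars and Sec61b, a subunit of the ER translocation channel (62.9 ± 5.73 against 52.3 ± 5.15 FPKM), were the 2 of 124 genes whose groups did not overlap, against 3.33% of all loci. Eif2ak3, the PERK sensor, averaged 7.75 ± 0.96 against 8.15 ± 0.92 FPKM in hippocampus and 5.23 ± 0.76 against 5.47 ± 0.70 in hypothalamus. The disulfide isomerase P4hb averaged 74.9 ± 11.6 against 79.1 ± 14.6 and 87.5 ± 8.54 against 82.3 ± 5.85. In hippocampus the next smallest p belonged to Hspa12b, a divergent Hsp70 (1.67 ± 0.52 against 2.41 ± 0.32 FPKM), and Bag3, an Hsp70 co-chaperone (6.49 ± 1.31 against 8.11 ± 1.30). In hypothalamus they belonged to Sec61b, Chordc1, an Hsp90 co-chaperone (20.9 ± 3.28 against 29.4 ± 8.75 FPKM), and Mthfd2, an enzyme of mitochondrial folate metabolism (3.01 ± 0.64 against 2.06 ± 0.60).

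Some markers of other cells in the dissected tissue differed between the groups, and all are given beside these results. Over all loci 48.6% were positive in hippocampus and 51.5% in hypothalamus. An unadjusted p under 0.05 in limma was seen for 0.808% and 3.14% of all loci, and groups that did not overlap for 0.668% and 3.33%. In hippocampus the groups overlapped for every marker. In hippocampus 10 of 10 tested meningeal fibroblast markers had positive fold changes (median 1.34), 1 of them at an unadjusted p under 0.05 in limma. Their summed level was 51.5 to 499.2 FPKM in controls and 200.2 to 752.4 with fructose. In hypothalamus 0 of 10 were positive (median -1.49), with 249.3 to 468.9 FPKM in controls and 51.7 to 258.6 with fructose, 7 of 10 at an unadjusted p under 0.05 in limma and 4 of 10 with groups that did not overlap. Endothelial markers were positive for 7 of 8 in hippocampus (153.1 to 226.8 against 176.3 to 223.3 FPKM) and 1 of 9 in hypothalamus (131.8 to 151.9 against 102.8 to 135.5 FPKM). Mural markers were positive for 6 of 7 (152.3 to 1682 against 358.5 to 1166 FPKM) and 3 of 8 (351.0 to 694.0 against 235.5 to 426.3 FPKM), with 3 of 8 at an unadjusted p under 0.05 in hypothalamus. Oligodendrocyte markers were positive for 0 of 6 in hippocampus and 3 of 8 in hypothalamus, astrocyte markers for 1 of 7 and 6 of 7, microglial markers for 1 of 8 and 5 of 8, and ependymal markers for 2 of 6 and 4 of 6, where 4 of 6 had an unadjusted p under 0.05 in hypothalamus and 3 of 6 did not overlap. Choroid plexus markers were positive for 5 of 6 in hippocampus (1195 to 7597 against 1501 to 5851 FPKM) and 3 of 6 in hypothalamus (42.2 to 120.9 against 38.1 to 48.5 FPKM), where 1 of 6 had an unadjusted p under 0.05. Neuronal markers were positive for 4 of 9 in each region. They summed to 2077 to 2805 against 2174 to 2620 FPKM in hippocampus and 1411 to 1818 against 1510 to 1621 in hypothalamus. Their log2 fold changes ran from -0.41 to 0.12 in hippocampus and from -1.06 to 0.19 in hypothalamus. In each region 1 of 9 had an unadjusted p under 0.05 in limma, lower with fructose. In hypothalamus so did 1 of 9 endothelial and 1 of 8 microglial markers. The hypothalamic groups also did not overlap for 1 of 9 neuronal, 1 of 8 microglial and 1 of 6 choroid plexus markers, each lower with fructose. Among the 8 mural markers there, the groups did not overlap for 1 that was higher with fructose and 1 that was lower. Of genes that respond to cold and handling, 4 of 8 were positive in hippocampus and 0 of 7 in hypothalamus (median -0.43, summed level 161.9 to 180.2 against 114.2 to 153.6 FPKM), 3 of them with an unadjusted p under 0.05. The part of these cells and of handling in the values of the stress genes was not tested. In bulk tissue fewer cells of a type and less RNA per cell cannot be told apart.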

How the data were processed

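RNA from hippocampus and hypothalamus of control and fructose-fed rats was poly-A selected and sequenced, per the labels' protocols. The values are FPKM per locus, deposited by the authors in 1 table per region, with a symbol for each locus and a status flag for each value. The submitters' processing notes name TopHat, TopHat2, Bowtie, Bowtie2, Cufflinks and Cuffdiff and the genome build rn5, without versions or roles; the gene annotation is not given in the sources used here. FPKM splits or drops reads of near-identical copies in a way that is not stated, so such genes are uncertain. The tables hold 15 of the 16 labelled samples, and columns were matched to samples by region, group and replicate number. Loci whose status was other than OK (117 in hippocampus, 36 in hypothalamus) were kept.

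Loci with a mean of at least 1 FPKM entered limma (version 3.58.1, R 4.3.3) as log2(FPKM + 1), in a moderated test with a trend and Benjamini-Hochberg adjustment over all tested loci at 0.05. A fold change on this scale understates the change of low genes. Printed errors are SD for FPKM and class means and SE for log2 fold changes. The interaction was fitted over symbols tested in both regions. The fit was run on simulated data with independent noise and with changes larger than that of any member. That run does not cover differences of the size seen here or the distance of the replicate 1 libraries from the rest. Count models could not be used, and depth is unknown; steps between very low values gave depths of 0.933 to 1.47 relative to control replicate 2 for replicates 2 to 4, and could not be read for replicate 1.

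The labels number the replicates without saying what a number marks. Same-numbered libraries had deviations (from their group means) that correlated at 0.892, 0.208, 0.481 and 0.410 in hippocampus and 0.848, 0.488 and 0.456 in hypothalamus, and a second fit therefore carried the number as a block.

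Values in every library are given for members with an unadjusted p under 0.05 or groups that do not overlap, the 3 smallest p of each region and of the interaction, and a chosen set (Hspa5, Pdia4, Herpud1, Ern1, Atf6, Xbp1, Atf4, Ddit3, Hspa1b, Hspa8, Hsp90aa1, Dnajb1, Hsf1); of the wider lists, genes with the smallest p. Slc39a12, Eif2ak3, P4hb and the other genes described by means were named outside this rule. The members, lists and tests were chosen with earlier results of these data known. Promoter sequences are from RefSeq (GRCr8); protein sequences were not used here. Alternatives varied the pseudocount, filter, scaling, block, weights and libraries. Plots used Python 3.11.15 and matplotlib 3.10.9.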

Additional observations from a re-analysis of the deposited data

Results flagged for a closer look

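In groups of 4 libraries, 10 of 99 combinations of gene and group held a library whose gap to its nearest neighbour exceeded 0.829 of the group's range (Dixon's criterion); chance gives about 1 in 20. In 7 of the 10 it was replicate 1. In hippocampus these were Hsp90b1 at 91.3 FPKM in control replicate 1 (others 122.9 to 127.5), Sdf2l1 at 13.9 in control replicate 1 (others 8.38 to 8.86), Asns at 40.2 in fructose replicate 1 (others 55.7 to 57.9) and Syvn1 at 17.1 in fructose replicate 1 (others 11.4 to 12.4). In hypothalamus they were the control replicate 1 values of Hsp90b1 at 288.6 FPKM (others 183.3 to 190.8), Dnajc3 at 19.99 (others 10.3 to 11.3) and Sel1l at 42.5 (others 32.5 to 33.5).

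The other 3 were replicate 4 libraries of hippocampus. Herpud1 stood at 38.5 FPKM in the control library (others 24.2 to 26.5), which is the value that makes its groups overlap. In the fructose library Hsf1 stood at 8.03 FPKM (others 11.4 to 11.9) and Hspa8 at 9.02 (others 3.37 to 4.21).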

How the results depend on the processing

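Under every alternative tried, 0 members were called in hippocampus, in hypothalamus and for the difference between regions. Over all loci, hypothalamus went from 1 call to 0 with a mean of at least 5 FPKM, 2 with the replicate block and 2 without both replicate 1 libraries, and the interaction from 0 to 336 with array weights. Leaving out 1 library gave 0 to 1 calls in hippocampus, 0 to 2 in hypothalamus and 0 to 1 for the interaction. The 1 call in hippocampus appeared without control replicate 3. In hypothalamus there were 2 calls without control replicate 1, 3 or 4 and 0 without fructose replicate 2 or 3. In hypothalamus it moved the ER median from -0.033 to 0.120, the cytosolic median from -0.083 to 0.326 and their difference, -0.039 with all libraries, from -0.222 to 0.051. The cytosolic median was 0.326, and the difference -0.222, without fructose replicate 3. Loci with an unadjusted p under 0.05 went from 92 to 658 in hippocampus and from 361 to 2099 in hypothalamus with array weights. In hippocampus Xbp1, Herpud1, Pdia4, Hspa5 and Atf6 were positive under all 21 alternatives each. Xbp1 lay between 0.19 and 0.48, Herpud1 between 0.26 and 0.49 and Pdia4 between 0.21 and 0.39. Hspa5 lay between 0.08 and 0.33 and Atf6 between 0.05 and 0.30. Several alternatives cannot move these estimates: the replicate block, the term for replicate 1, the filters and the fit without a trend. These genes were also higher with fructose in every pair, so the count of alternatives does not measure their certainty. In hypothalamus Hspb1 lay between -0.67 and -0.36 and Manf between 0.15 and 0.56 over 20 alternatives. Hspa8, Ern1, Ddit3, Dnajb1, Hsp90aa1, Hspb1 and Hsf1 in hippocampus, and Hspa5, Pdia4, Xbp1, Ddit3, Hsp90aa1 and Hsf1 in hypothalamus, changed sign under at least 1 alternative. Apart from the counts given here and those of the block in the report, the replicate block changed no call. The limits are the unknown depth, 3 or 4 libraries a group and the distance of the replicate 1 libraries from the rest.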
